A study of Saccharomyces cerevisiae EC1118 with 12 samples.

Results

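Saccharomyces cerevisiae EC1118, a commercial wine yeast, was compared between chemostats sparged with 20% oxygen and fully anaerobic chemostats. The comparison took the 3 arrays labelled with 20% oxygen in the gas and the 3 labelled anaerobic, chosen by their labels alone, 6 of the 12 arrays of the series. The other 6 arrays, 3 at 1% and 3 at 5% oxygen, entered the shared estimate of the spread and an account of levels, and the 5% arrays also a test against 20%. All cultures, the anaerobic ones included, grew at steady state under nitrogen limitation in a modified synthetic grape must, kept at pH 3.5 with 0.1 volumes replaced per hour. Total RNA was labelled with biotin and measured on Affymetrix expression arrays. For the 20% group, dissolved oxygen is 11 micromolar in the condition text but 5 in the titles, so groups are called by the gas. Whether replicate arrays come from different chemostat runs is not in the labels. The p-values therefore rest on the spread between these arrays alone, and that spread may be technical.

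Yeast uses oxygen as the last electron acceptor of respiration and as a substrate in making heme, sterols and unsaturated fatty acids. Without it, cells take up sterols from the medium, replace part of their cell wall mannoproteins with the DAN, TIR and PAU families and use separate hypoxic forms of several enzymes. Heme, whose synthesis needs oxygen, serves as the internal signal: through Hap1 it drives respiratory genes and the repressor gene ROX1, while Upc2 senses sterol depletion. Oxidation of proline, a major nitrogen source of grape must, is also tied to respiration.

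Levels are log2 values, on which a difference of 1 is a 2-fold change, and differences are 20% oxygen minus anaerobic with the standard error of the fit. A mean level is given ± SD of 3 arrays. The deposited table holds no detection calls, so where one group is at low levels the true size of a difference is not settled by it. Genes with an adjusted p under 0.05 in limma are the called genes. Within these bulk cultures, fewer cells with a transcript and less transcript per cell cannot be told apart. Correlations of each of the 6 arrays with its own group's remaining arrays were 0.972 to 0.992. Anaerobic array 1 and 1% oxygen array 3 stood apart from their groups in several lists, and without both of them 549 genes were called in place of 431. The 20% arrays also stood apart from each other in some lists, given below. Their correlations were 0.973, 0.978 and 0.972, against 0.977 for anaerobic array 1. Leaving out 1 array at a time gave from 153 to 758 calls. The median difference over all 5449 genes was 0.05.

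Of all tested genes, 431 or 7.91% were called. At 20% oxygen 178 genes rose, which is 3.27% of those tested, and 253 fell, which is 4.64%. The excess of falls was not kept when dim genes were left out, with 183 rises and 178 falls. It was smaller after quantile scaling, with 264 rises and 281 falls. A rise of at least 2-fold was called for 1.69% of genes and a fall of that size for 3.85%. All called genes had no overlap between the 3 arrays of each group, but so did many others, since 18.3% of all genes lay wholly higher and 15.9% wholly lower at 20% oxygen. With each of the 12 arrays left out in turn, 40 rises and 81 falls kept their call. Leaving aside the PAU family, genes without a symbol and genes dim in both groups, 18 of the 20 largest falls and 10 of the 20 largest rises did so. Dim means a mean level under 5.84, which held over all arrays for 1362 genes. The total of 431 was 153 without anaerobic array 2, 156 without anaerobic array 3, 181 without 20% oxygen array 2 and 758 without 1% oxygen array 3. The arrays behind each call that did not hold are named beside the gene by group and number. The median coding length was 1338 bases for the rises, 1431 for the falls and 1236 for all genes.

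**Figure D1:**
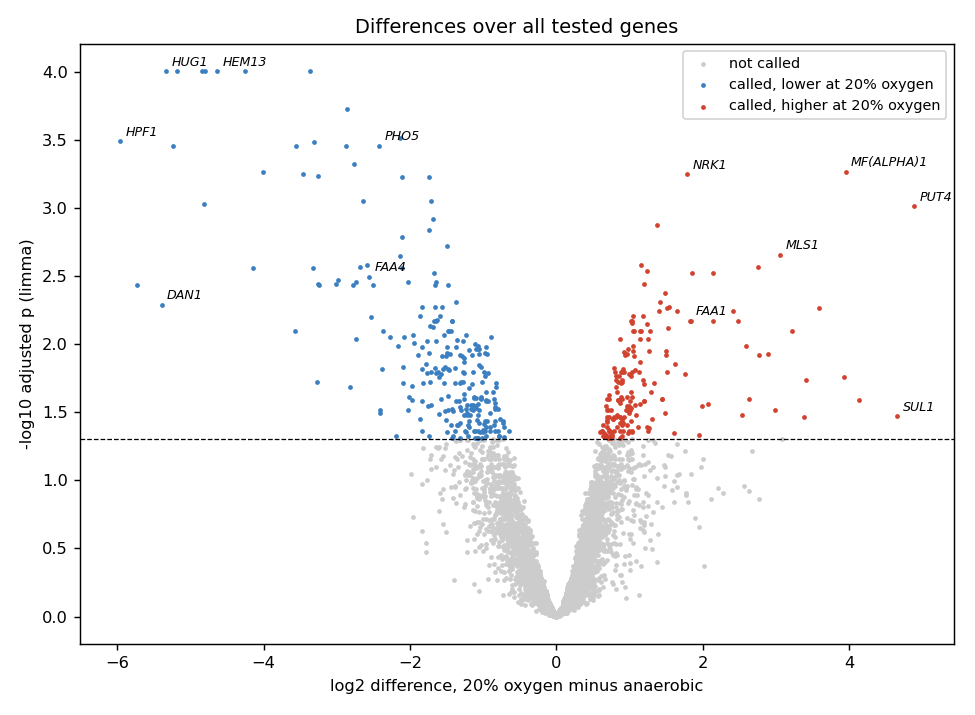
Log2 difference of each of the 5449 genes (x axis, 20% oxygen minus anaerobic) against -log10 of its adjusted p from limma (y axis), 1 point per gene. The dashed line is an adjusted p of 0.05, above which 253 genes lie to the left and 178 to the right.

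The genes of sterol uptake and the anaerobic cell wall held 10 of the 20 largest falls named, from which PAU genes, genes without a symbol and genes dim in both groups were left out. Of 13 measured members of that list, 12 fell (median -3.56, against 0.05 for all genes). The largest fall was in HPF1, a haze-protective mannoprotein gene listed with the wall proteins of aerobic cells. It stood at 10.48, 10.26 and 11.33 on the anaerobic arrays and at 3.41, 6.10 and 4.67 on the 20% arrays (-5.96 ± 0.63, adjusted p = 0.000323). Every anaerobic array lay more than 4 log2 units above every 20% array. TIR2 encodes a serine- and alanine-rich cell wall protein of the cold shock and anaerobic family. TIR2 stood at 12.20, 12.73 and 12.48 without oxygen and 7.33, 7.49 and 8.07 at 20% (-4.84 ± 0.44, adjusted p = 9.92e-05).

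The genes of sterol uptake and the anaerobic cell wall differed in how evenly they fell on the 3 arrays at 20% oxygen. DAN1 stood at 12.57, 12.71 and 12.67 on the anaerobic arrays, within 0.14 of each other, and at 7.58, 4.93 and 9.27 on the 20% arrays (-5.39 ± 0.90, adjusted p = 0.00513). TIR4 stood at 12.23, 12.69 and 12.37 and then at 7.63, 4.70 and 7.76 (-5.73 ± 0.91, adjusted p = 0.0037). TIR1 stood at 12.77, 12.90 and 12.78 and then at 9.35, 7.02 and 9.64 (-4.14 ± 0.62, adjusted p = 0.00277). In DAN1, TIR4, TIR1 and TIR3 (-3.26 ± 0.73) 20% oxygen array 2 was the lowest by a wide gap. TIR2, AUS1 and PBI1 did not show this gap: their 20% arrays spanned 0.74, 0.27 and 0.92. On the anaerobic side, array 1 was the lowest of the 3 for all 13 members of the list, with a median -0.51 from the other arrays. TIR3 lost its call on dropping anaerobic 2 or 3 or 20% oxygen 2 (highest adjusted p 0.0802).

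Sterol import and storage genes fell together with the wall genes. AUS1 and PDR11 encode the ABC transporters that bring sterol into the cell. AUS1 stood at 9.52, 10.66 and 10.36 and fell to 6.70, 6.93 and 6.97 (-3.32 ± 0.35, adjusted p = 0.000326), and PDR11 fell from 8.40 ± 0.11 to 6.32 ± 0.54 (-2.09 ± 0.39). ARE1, which esterifies sterols for storage in lipid droplets, fell (-1.68 ± 0.30), as did UPC2 (-2.64 ± 0.33, adjusted p = 0.000885), the sterol-sensing activator of this group. Its paralog ECM22 was not called (-0.58 ± 0.29, adjusted p = 0.231). All 13 measured genes of the seripauperin (PAU) family, small mannoproteins with near-identical copies whose probes can share signal, lay wholly lower and 12 were called (median -2.78). PAU24 had the largest fall of them (-5.19 ± 0.45). The calls of AUS1, PDR11, ARE1, UPC2 and PAU24 held with each array left out.

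Sterol synthesis gave few calls, with 7.69% of the list called lower against 4.64% of all genes. Of 26 genes ERG6 (-2.39 ± 0.51), a methyltransferase of late ergosterol synthesis, and CYB5 (-1.27 ± 0.30), an electron donor to its oxygen-using steps, fell. The list leaned lower, with 4 of the 26 differences above 0 (median -0.27). Of the 26, 11 lay wholly lower and 1 wholly higher at 20% oxygen, against 15.9% and 18.3% of all genes. ERG11, the lanosterol demethylase, was not called (-0.07 ± 0.19, adjusted p = 0.874). DAP1, which encodes a heme-binding partner of that enzyme, fell from 9.43, 9.67 and 9.46 to 7.73, 8.03 and 7.67 (-1.71 ± 0.22, adjusted p = 0.000885). Of the 7 oxysterol-binding proteins, a family that moves lipids between membranes, 5 fell (median -0.84), led by HES1, which went from 9.02, 10.03 and 10.0 to 4.08, 4.19 and 5.07 (-5.24 ± 0.58, adjusted p = 0.00035). OSH6 (-1.06 ± 0.21), SWH1 (-1.32 ± 0.27), OSH2 (-0.84 ± 0.23) and OSH3 (-0.77 ± 0.20) fell less. OSH7 (0.76) and KES1 (0.21 ± 0.19) went the other way, wholly higher at 20% oxygen, but were not called. ERG6 lost its call on dropping anaerobic 2 or 20% oxygen 2 or 3 (highest adjusted p 0.0665). CYB5 lost it on dropping anaerobic 1 or 2 or 20% oxygen 2 or 3 (highest adjusted p 0.105), and without anaerobic 1 and 1% oxygen 3 (0.0571). OSH6 lost its call on dropping anaerobic 3 (highest adjusted p 0.0582) and SWH1 on dropping anaerobic 2 or 20% oxygen 2 (highest adjusted p 0.0597). OSH2 lost its call on dropping anaerobic 1, 2 or 3, 1% oxygen 1, 5% oxygen 1, 2 or 3 or 20% oxygen 2 (highest adjusted p 0.169), and without anaerobic 1 and 1% oxygen 3 (0.0508). OSH3 lost it on dropping anaerobic 1, 2 or 3, 5% oxygen 1 or 2 or 20% oxygen 2 or 3 (highest adjusted p 0.144).

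**Figure D2:**
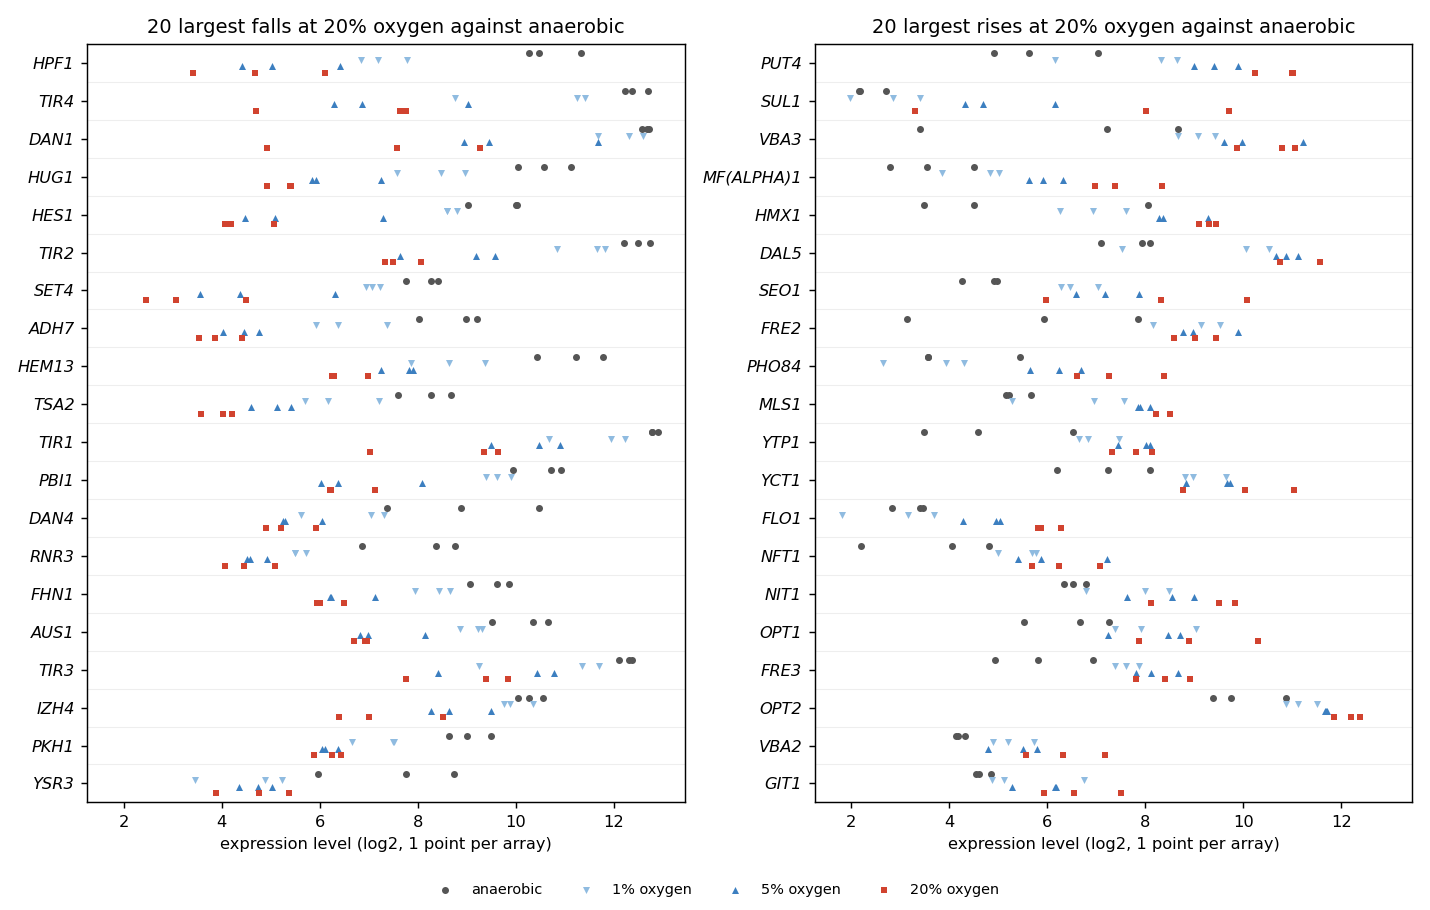
Levels (x axis, log2) of the 20 largest falls and 20 largest rises by the naming rule, 1 point per array, with the 4 oxygen groups in separate symbols. The naming rule admits only genes whose anaerobic and 20% arrays do not overlap. The anaerobic arrays of HMX1, VBA3 and FRE2 and the 20% arrays of SUL1 are widely spread.

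FHN1, a paralog of the eisosome organiser NCE102, stood at 9.07, 9.62 and 9.85 and fell to 6.0, 5.95 and 6.49 (-3.37 ± 0.31, adjusted p = 9.92e-05). PKH1, a kinase that answers to sphingoid bases, went from 9.49, 8.64 and 9.01 to 6.24, 5.89 and 6.42 (-2.86 ± 0.28, adjusted p = 0.000189). Neither set of 3 arrays spanned more than 1 unit. The membrane protein genes IZH4 (-2.98 ± 0.46) and IZH2 (-1.74 ± 0.21), relatives of animal progestin and adiponectin receptors, fell, and IZH4 varied on the 20% arrays (6.39, 7.0 and 8.51). Chosen after their values were seen, the acyltransferase genes of phospholipid synthesis ALE1 (-1.64 ± 0.29), SLC1 (-1.77 ± 0.38) and ICT1 (-2.10 ± 0.25) and the protein disulfide isomerase genes PDI1 (-1.77 ± 0.34) and EUG1 (-1.68 ± 0.22) also fell. SLC1 lost its call on dropping anaerobic 2 or 3 or 20% oxygen 2 or 3 (highest adjusted p 0.0693).

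FAA1 and FAA4, the 2 main acyl-CoA synthetases for long-chain fatty acids, moved in opposite directions. FAA1 stood at 9.62, 8.19 and 8.18 on the anaerobic arrays and rose to 10.32, 10.49 and 10.69 (1.83 ± 0.33, adjusted p = 0.00675). FAA4 stood at 10.67, 10.71 and 10.64 and fell to 8.33, 7.73 and 8.28 (-2.56 ± 0.39, adjusted p = 0.00319). Both calls held with each array left out. They were the only called members of the 28 peroxisome and fatty acid oxidation genes. Of 22 sphingolipid synthesis genes 2 rose and 1 fell (median -0.01), or 9.09% and 4.55% against 3.27% and 4.64% of all genes. The sphingoid base phosphate phosphatase genes were divided, with LCB3 higher (1.03 ± 0.27) and its paralog YSR3 lower (-2.81 ± 0.64). The fatty acid desaturase gene OLE1 stood at 12.27, 12.14 and 12.07 and 11.03, 11.52 and 11.86 and was not called (-0.69 ± 0.23, adjusted p = 0.0902), nor was any other of 22 fatty acid synthesis genes. LCB3 lost its call on dropping anaerobic 1, 2 or 3, 5% oxygen 2 or 20% oxygen 1, 2 or 3 (highest adjusted p 0.122) and YSR3 on dropping anaerobic 2 or 3 or 20% oxygen 1 or 2 (highest adjusted p 0.0861).

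Of 11 genes of heme synthesis and breakdown 3 fell and 1 rose (median -0.30). Those are 27.3% and 9.09% of the list, against 4.64% and 3.27% of all genes. HEM13, coproporphyrinogen oxidase, uses molecular oxygen in heme synthesis. It stood at 10.44, 11.78 and 11.22 on the anaerobic arrays and at 6.99, 6.30 and 6.24 on the 20% arrays, 24.8-fold lower (-4.63 ± 0.41, adjusted p = 9.92e-05). HEM14, which acts on the product of that step, fell less (-1.08 ± 0.21). ANB1, the hypoxic translation factor eIF5A gene, fell from 12.12 ± 0.27 to 9.98 ± 0.25 (-2.14 ± 0.22, adjusted p = 0.000305), and AAC3, the hypoxic ADP/ATP carrier gene, fell from 9.03 ± 0.70 to 7.01 ± 0.15 (-2.02 ± 0.31, adjusted p = 0.00349). ROX1, the heme-dependent repressor gene of hypoxic genes, was not called: its anaerobic levels were 10.42, 9.05 and 6.98 and its 20% levels 7.89, 5.87 and 7.17 (-1.84 ± 0.92, adjusted p = 0.237). Of the 16 oxygen-responsive regulators, 5 fell, or 31.25% against 4.64% of all genes, and none rose (median -0.79). SET4, a SET-domain protein gene, fell from 7.76, 8.41 and 8.26 to 2.46, 3.07 and 4.49 (-4.81 ± 0.61, adjusted p = 0.000937). MGA2 (-1.58 ± 0.37), the activator of OLE1, CYC8 (-1.56 ± 0.32), the corepressor that acts with Tup1, and IXR1 (-1.73 ± 0.35), a regulator of hypoxic genes, fell too. HEM14 lost its call on dropping anaerobic 2 (highest adjusted p 0.0551) and MGA2 on dropping anaerobic 1, 2 or 3 or 20% oxygen 1 or 2 (highest adjusted p 0.106). CYC8 lost its call on dropping anaerobic 2 or 20% oxygen 2 (highest adjusted p 0.0586) and IXR1 on dropping anaerobic 2 or 20% oxygen 2 (highest adjusted p 0.0533).

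Many of these genes have a close relative, and the relatives were compared directly. In 23 pairs of paralogs or genes with related roles, the difference between partners was taken within each array and compared between groups. The exact two-sided permutation test of 3 against 3 arrays cannot go below 0.1, and 18 pairs reached that value with no overlap of the arrays (0.128 after adjustment over the 23 pairs). The pairs were chosen with earlier results of these data known, and several join a called gene with one that was not called. Separation within such a pair largely repeats that call and is not separate support for it. PET9, the main ADP/ATP carrier gene, rose (1.08 ± 0.26) where AAC3 fell, and the mean of PET9 minus AAC3 went from 0.35 to 3.45. TSA1, the abundant cytosolic peroxiredoxin gene, was not called (-0.18 ± 0.17, adjusted p = 0.594), while its paralog TSA2 went from 8.68, 7.59 and 8.26 to 3.57, 4.20 and 4.02 (-4.25 ± 0.39, adjusted p = 9.92e-05). ADH6, an NADPH-dependent alcohol dehydrogenase gene, was not called (0.35 ± 0.20, adjusted p = 0.308), while its relative ADH7 went from 8.03, 9.21 and 8.97 to 3.53, 4.42 and 3.87 (-4.80 ± 0.40, adjusted p = 9.92e-05). In both pairs the called partner fell by more than 4 log2 units on average. HYP2, the aerobic partner of ANB1, was not called (0.09 ± 0.16, adjusted p = 0.785), nor was COX5B, the hypoxic partner of COX5A (-0.37 ± 0.24, adjusted p = 0.395). TIR1 and TIR2, HMG1 and HMG2, FRE2 and FRE3, ACS2 and ACS1, and MDH1 and MDH2 had overlapping within-array differences. PET9 lost its call on dropping anaerobic 2 or 3 or 20% oxygen 1 or 2 (highest adjusted p 0.121).

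**Figure D3:**
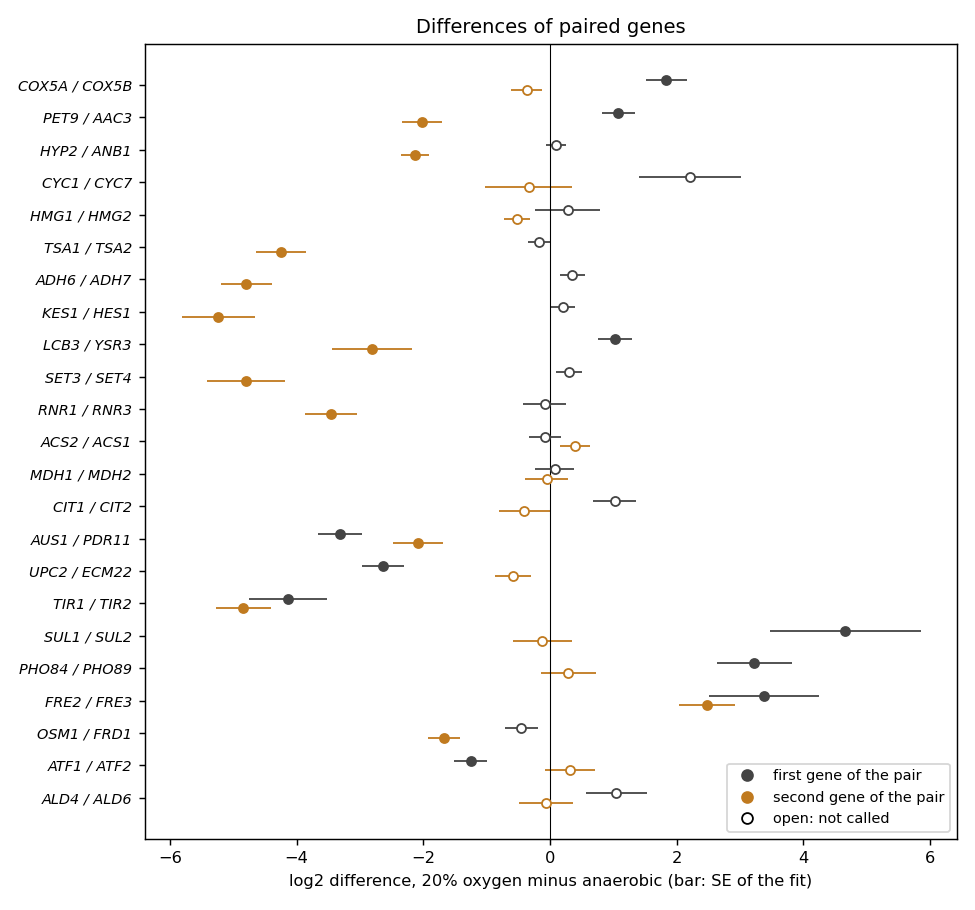
Log2 difference (x axis, 20% oxygen minus anaerobic, bar SE of the fit) of both genes of the 23 pairs. Filled points were called and open points were not; TSA2, ADH7, HES1, SET4 and RNR3 lie far below partners that were not called.

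Of 18 ribonucleotide reductase and DNA damage genes 3 fell, or 16.7% against 4.64% of all genes, and none rose (median -0.08). Ribonucleotide reductase makes deoxyribonucleotides with an iron centre formed with oxygen. HUG1, an inhibitor of that enzyme, stood at 10.04, 11.12 and 10.57 and fell to 5.42, 4.93 and 5.39 (-5.33 ± 0.43, adjusted p = 9.92e-05). RNR3, the minor large subunit gene, fell from 8.76, 6.86 and 8.36 to 4.45, 4.07 and 5.08 (-3.46 ± 0.41, adjusted p = 0.000564), and RNR4, of the small subunit, fell less (-0.96 ± 0.26). RNR1, the main large subunit gene, was not called (-0.08 ± 0.34, adjusted p = 0.915). Among 23 glycerol, acetate and redox outlet genes 4 fell, or 17.4% against 4.64% of all genes, ADH7 with them (median -0.23). FRD1, a soluble fumarate reductase that reoxidises flavin without oxygen, fell from 9.18 ± 0.07 to 7.5 ± 0.36 (-1.68 ± 0.25, adjusted p = 0.00302), and its paralog OSM1 was not called (-0.45 ± 0.26, adjusted p = 0.316). The aldehyde reductase gene ARI1 (-1.36 ± 0.26) and the dihydroxyacetone kinase gene DAK1 (-0.91 ± 0.23) fell. Of 37 antioxidant genes the falls were TSA2 and the nuclear peroxiredoxin gene DOT5 (-1.16 ± 0.28), and none rose (median -0.07). Those falls are 5.41% of the list, near the 4.64% of all genes. The alcohol acetyltransferase gene ATF1, which makes acetate esters of wine aroma, fell (-1.26 ± 0.26). RNR4 lost its call on dropping anaerobic 1, 2 or 3, 1% oxygen 1, 5% oxygen 1 or 20% oxygen 1, 2 or 3 (highest adjusted p 0.165) and ARI1 on dropping anaerobic 2 (highest adjusted p 0.0506). DAK1 lost its call on dropping anaerobic 1, 2 or 3 or 20% oxygen 1 or 2 (highest adjusted p 0.131), and without anaerobic 1 and 1% oxygen 3 (0.0676). DOT5 lost it on dropping anaerobic 1, 2 or 3 or 20% oxygen 2 or 3 (highest adjusted p 0.108). ATF1 lost its call on dropping anaerobic 2 or 3 or 20% oxygen 2 (highest adjusted p 0.0645).

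The largest rise was in PUT4, the high-affinity proline permease gene. It stood at 7.03, 4.92 and 5.62 on the anaerobic arrays and at 10.99, 10.24 and 11.01 on the 20% arrays, 29.6-fold higher (4.89 ± 0.63, adjusted p = 0.000967). The enzymes of proline oxidation did not pass the test: PUT1 differed by 0.42 ± 0.32, adjusted p = 0.466, PUT2 by 0.41 ± 0.36, adjusted p = 0.558, and their activator gene PUT3 by 0.49 ± 0.19, adjusted p = 0.129. Arginine synthesis genes ARG4 (1.02 ± 0.25), ARG8 (1.18 ± 0.26) and ORT1 (0.97 ± 0.24), the mitochondrial ornithine carrier, rose, and the arginine breakdown gene CAR2 fell (-1.60 ± 0.40). Of 18 proline and arginine genes 4 rose and 1 fell (median 0.41). Those are 22.2% and 5.56% of the list, against 3.27% and 4.64% of all genes. ARG4 lost its call on dropping anaerobic 1, 2 or 3 or 20% oxygen 1, 2 or 3 (highest adjusted p 0.0955) and ARG8 on dropping anaerobic 1 or 3 or 20% oxygen 2 (highest adjusted p 0.0767). ORT1 lost its call on dropping anaerobic 1, 2 or 3 or 20% oxygen 1 or 2 (highest adjusted p 0.0985), and without anaerobic 1 and 1% oxygen 3 (0.0568). CAR2 lost it on dropping anaerobic 1, 2 or 3 or 20% oxygen 2 or 3 (highest adjusted p 0.129), and without anaerobic 1 and 1% oxygen 3 (0.067).

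Of 29 nitrogen catabolite repressed genes 3 rose and 1 fell, and 13 of the 29 differences lay above 0 (median -0.03). The rises are 10.3% of the list against 3.27% of all genes, and the fall 3.45% against 4.64%. DAL5, the allantoate and ureidosuccinate permease gene, went from 7.11, 7.93 and 8.09 to 11.56, 10.76 and 11.57 (3.59 ± 0.61, adjusted p = 0.00541). OPT2, an oligopeptide transporter gene, went from 9.39, 10.87 and 9.76 to 12.19, 11.86 and 12.38 (2.14 ± 0.32, adjusted p = 0.00301). The peptide transporter gene PTR2 rose (1.02 ± 0.23), and so did OPT1 (2.54 ± 0.64), which imports glutathione. NIT1, a nitrilase gene, rose from 6.53, 6.79 and 6.35 to 9.5, 8.11 and 9.83 (2.59 ± 0.5, adjusted p = 0.0104). The ammonium permease gene MEP2 (1.26 ± 0.36, adjusted p = 0.0506) and the general amino acid permease gene GAP1 (1.04 ± 0.32, adjusted p = 0.0702) were not called, and the GATA repressor gene GZF3 fell (-1.22 ± 0.29). PTR2 lost its call on dropping anaerobic 1 or 3 or 20% oxygen 3 (highest adjusted p 0.0815) and OPT1 on dropping anaerobic 2 or 3 or 20% oxygen 1 or 3 (highest adjusted p 0.14). GZF3 lost its call on dropping anaerobic 2 or 3 or 20% oxygen 2 or 3 (highest adjusted p 0.109).

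The list of other amino acid permeases, of plasma membrane and vacuole and without PUT4, had the largest share of called rises among the 40 lists. Of 27, 9 rose, or 33.3% against 3.27% of all genes, and none fell (median 0.87). The vacuolar amino acid transporter genes AVT7 (1.16 ± 0.17, adjusted p = 0.00264), AVT4 (1.18 ± 0.20, adjusted p = 0.00623) and AVT2 (1.05 ± 0.18, adjusted p = 0.00623) and the basic amino acid transporter genes RTC2 (1.54 ± 0.26, adjusted p = 0.00532) and VBA2 (2.14 ± 0.38, adjusted p = 0.00675) kept their calls with each array left out. AVT7 was even across arrays, at 8.60, 8.94 and 8.70 and then 9.77, 9.90 and 10.05. VBA3 had a larger difference (4.14 ± 0.98) but its anaerobic arrays stood at 8.66, 3.41 and 7.22. DIP5 (1.48 ± 0.37), the dicarboxylic amino acid permease, SAM3 (1.61 ± 0.44), the S-adenosylmethionine permease, and YPQ2 (0.87 ± 0.17) rose. VBA3 lost its call on dropping anaerobic 3 or 20% oxygen 1, 2 or 3 (highest adjusted p 0.0703), and in a fit of the 2 groups only (0.0554). DIP5 lost it on dropping anaerobic 1, 2 or 3 or 20% oxygen 1 or 3 (highest adjusted p 0.121). SAM3 lost its call on dropping anaerobic 1, 2 or 3, 1% oxygen 1, 5% oxygen 1 or 2 or 20% oxygen 1 or 3 (highest adjusted p 0.157), and in a fit of the 2 groups only (0.0715) and without anaerobic 1 and 1% oxygen 3 (0.0534). YPQ2 lost it on dropping anaerobic 3 (highest adjusted p 0.0544). The list of amino acid synthesis genes under Gcn4 gave no call in 43 measured (median 0.10). It does not hold ARG4 and ARG8, the called arginine synthesis genes given above.

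**Figure D4:**
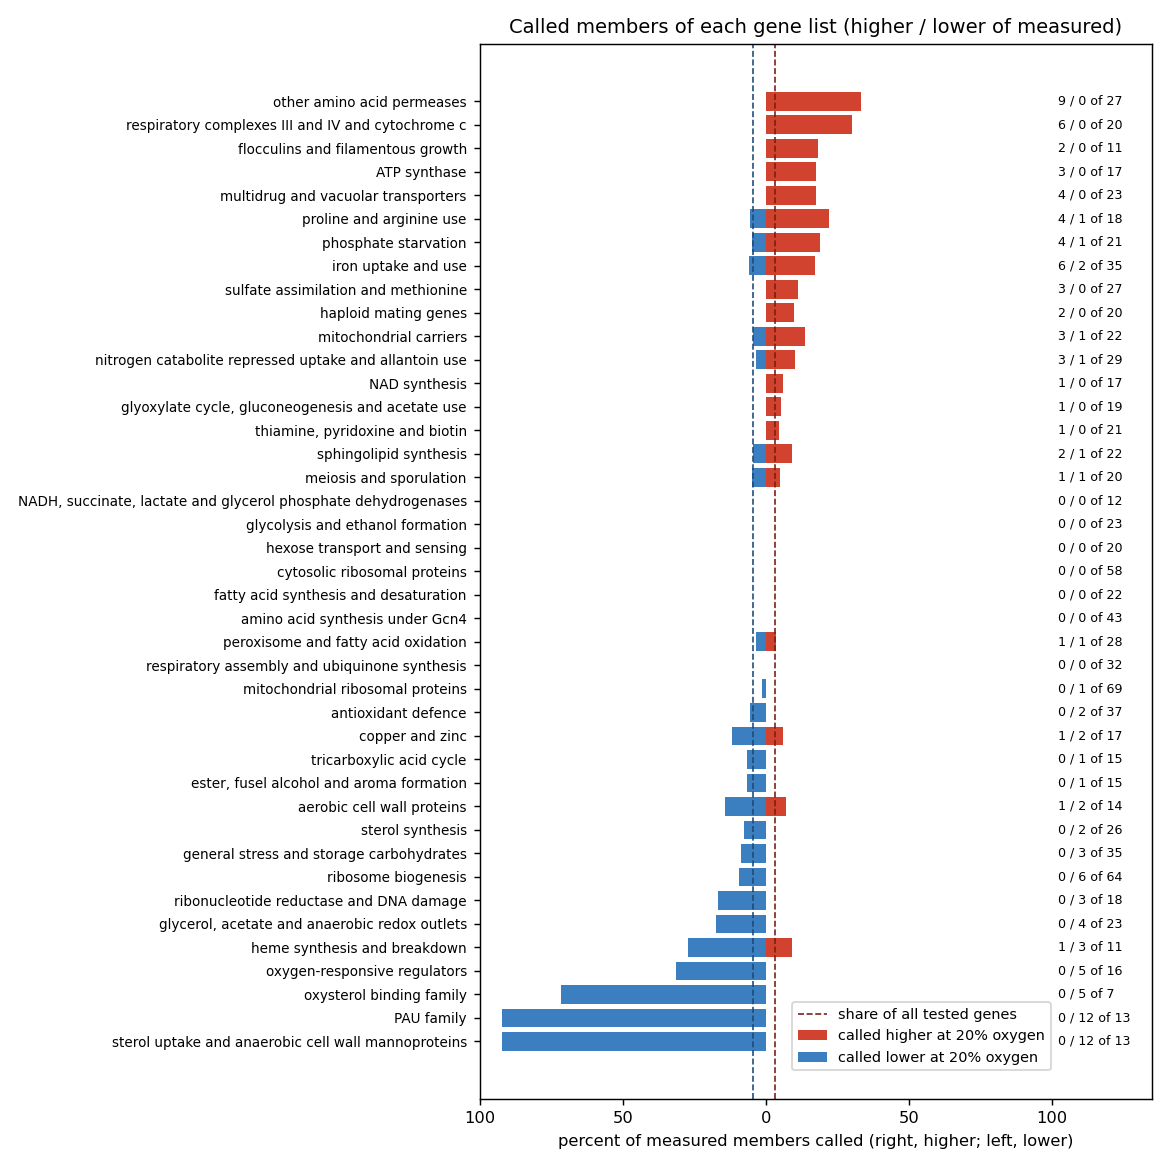
Percent of measured members called higher (right, red) and lower (left, blue) at 20% oxygen in each of 40 gene lists and the PAU family, with the counts at the right. The dashed lines give the shares of all tested genes, 3.27% higher and 4.64% lower. The sterol uptake and PAU groups extend furthest to the left and the other amino acid permeases furthest to the right.

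Respiratory genes rose in part. Of 20 genes for complexes III and IV with cytochrome c, 6 rose, or 30% against 3.27% of all genes, and none fell (median 0.93). COX5A, the aerobic form of cytochrome c oxidase subunit 5, stood at 9.84, 8.85 and 8.78 and rose to 10.73, 11.37 and 10.87 (1.84 ± 0.33, adjusted p = 0.00675). COX4, COX12, COX13 and COX9 of the same oxidase rose by 0.89 to 1.63, and COR1 of complex III rose (0.98 ± 0.27). Of 17 ATP synthase genes 3 rose, or 17.6% against 3.27% of all genes (median 0.56). The ATPase inhibitor gene INH1 rose most (1.34 ± 0.30), with the subunit genes ATP7 (0.87 ± 0.23) and ATP5 (0.83 ± 0.19) below it. The mitochondrial phosphate carrier gene MIR1 (1.48 ± 0.24, adjusted p = 0.00421) and the GTP/GDP carrier gene GGC1 (1.24 ± 0.22, adjusted p = 0.00706) rose, with calls that held with each array left out. MIR1 stood at 8.80, 8.56 and 8.63 and then at 10.26, 10.22 and 9.96. The complex II, NADH, lactate and glycerol phosphate dehydrogenase list (median 0.22) and the respiratory assembly and ubiquinone list (median 0.18) had no called member among 12 and 32 genes. COX4 lost its call on dropping anaerobic 2 or 3 or 20% oxygen 2 (highest adjusted p 0.0655) and COX12 on dropping anaerobic 2 or 3 or 20% oxygen 2 (highest adjusted p 0.119). COX13 lost its call on dropping anaerobic 2 or 3, 5% oxygen 1 or 2 or 20% oxygen 2 or 3 (highest adjusted p 0.151), and in a fit of the 2 groups only (0.053). COX9 lost it on dropping anaerobic 1, 2 or 3 or 20% oxygen 2 (highest adjusted p 0.0856). COR1 lost its call on dropping anaerobic 2 or 3, 1% oxygen 1 or 2, 5% oxygen 1 or 20% oxygen 1, 2 or 3 (highest adjusted p 0.178), and in a fit of the 2 groups only (0.0562). INH1 lost it on dropping anaerobic 2 or 3 or 20% oxygen 2 (highest adjusted p 0.0933). ATP7 lost its call on dropping anaerobic 1, 2 or 3, 5% oxygen 1 or 2 or 20% oxygen 1 or 2 (highest adjusted p 0.148) and ATP5 on dropping anaerobic 2 or 3 or 20% oxygen 2 (highest adjusted p 0.107).

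Anaerobic array 1 stood apart in the respiratory genes. It lay above the other anaerobic arrays in 19 of those 20 genes, by a median of 0.97. CYC1, the main cytochrome c gene, stood at 8.88, 6.29 and 5.38 on the anaerobic arrays and 8.97, 9.55 and 8.65 on the 20% arrays and was not called (2.21 ± 0.81, adjusted p = 0.113), but was called without that array (3.22, adjusted p = 0.0164). Chosen after its values were seen, the lactate dehydrogenase gene CYB2 showed the same split, at 7.57, 3.21 and 3.49 and then 6.14, 7.83 and 8.18 (2.63 ± 0.99, adjusted p = 0.12). The same array was above its partners in 32 of 35 stress and storage carbohydrate genes, including the catalase gene CTT1 at 9.84, 6.05 and 6.21. The cause of this spread was not tested.

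Among the carbon genes, MLS1, malate synthase of the glyoxylate cycle, rose from 5.22, 5.68 and 5.15 to 8.5, 8.51 and 8.21 (3.06 ± 0.44, adjusted p = 0.00221). It was the single called gene of 19 in its list (median 0.43). The isocitrate lyase gene ICL1, its partner in that cycle, differed by -0.34 ± 0.34, adjusted p = 0.601. PYC1, pyruvate carboxylase, fell (-1.09 ± 0.28), alone of 15 tricarboxylic acid cycle genes. No call was made among 23 genes of glycolysis and ethanol formation (median 0.0) or 20 of hexose transport and sensing (median 0.18). PDC6, a minor pyruvate decarboxylase gene singled out after its values were seen, stood at 7.56, 6.46 and 6.24 and then 9.56, 6.89 and 9.84 (2.01 ± 0.63, adjusted p = 0.0701). NRK1, nicotinamide riboside kinase of the NAD salvage pathway, rose from 7.73, 8.06 and 7.80 to 9.96, 9.26 and 9.72 (1.79 ± 0.21, adjusted p = 0.000564), the second smallest adjusted p among rises. PYC1 lost its call on dropping anaerobic 2 or 3, 5% oxygen 1 or 2 or 20% oxygen 1 or 2 (highest adjusted p 0.154), and in a fit of the 2 groups only (0.0544).

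Of 35 iron genes 6 rose and 2 fell, and the difference lay above 0 in 30 (median 1.02). FRE3, a ferric reductase gene for siderophore iron, rose from 6.94, 4.93 and 5.81 to 7.81, 8.39 and 8.91 (2.48 ± 0.44, adjusted p = 0.00675), and VHT1, the biotin transporter gene that iron also regulates, rose from 7.27, 6.95 and 7.20 to 8.28, 8.65 and 8.23 (1.25 ± 0.19, adjusted p = 0.0029). These kept their calls with each array left out. HMX1, heme oxygenase, stood at 8.05, 3.48 and 4.5 on the anaerobic arrays and 9.44, 9.10 and 9.30 on the 20% arrays (3.93 ± 0.86, adjusted p = 0.0174). FRE2 stood at 7.85, 3.14 and 5.93 and then 8.59, 9.01 and 9.45 (3.38 ± 0.87, adjusted p = 0.0344). In both, anaerobic array 1 was closest to the 20% arrays and anaerobic array 2 furthest below. Over the list, anaerobic array 2 was the lowest of its group in 29 of 35 genes, by a median of -1.27. AFT1 (-1.20 ± 0.32) and AFT2 (-0.99 ± 0.27), which encode the activators of this regulon, were the 2 falls. Those falls are 5.71% of the list, near the 4.64% of all genes, and the rises 17.1% against 3.27%. HMX1 lost its call on dropping anaerobic 2 or 3 or 20% oxygen 2 or 3 (highest adjusted p 0.0767). FRE2 lost it on dropping anaerobic 2 or 3 or 20% oxygen 1, 2 or 3 (highest adjusted p 0.105), and in a fit of the 2 groups only (0.0657). AFT1 lost its call on dropping anaerobic 1, 2 or 3, 5% oxygen 1 or 2 or 20% oxygen 2 or 3 (highest adjusted p 0.154), and after quantile scaling (0.0531). AFT2 lost it on dropping anaerobic 1, 2 or 3, 5% oxygen 2 or 20% oxygen 1 or 2 (highest adjusted p 0.162), and after quantile scaling (0.101) and without anaerobic 1 and 1% oxygen 3 (0.0591).

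Sulfur genes varied widely among the 20% arrays. SUL1, a sulfate permease gene, stood at 2.71, 2.15 and 2.19 on the anaerobic arrays and at 8.02, 3.29 and 9.72 on the 20% arrays (4.66 ± 1.19, adjusted p = 0.034). SEO1, a permease gene, stood at 4.91, 4.26 and 4.97 and then at 8.32, 5.97 and 10.07 (3.41 ± 0.75, adjusted p = 0.0182). YCT1, the cysteine transporter gene, stood at 8.09, 6.19 and 7.25 and then at 10.03, 8.76 and 11.04 (2.76 ± 0.56, adjusted p = 0.012). In each, 20% oxygen array 2 was lowest and array 3 highest. The same order held widely in the sulfate and methionine list, where array 2 was the lowest of its group in 24 of 27 genes (median -1.47 from its partners) and array 3 the highest in 23 (median 1.32). These 3 genes were the only calls of the list (median 0.54), and SUL2, the other sulfate permease gene, was not called (-0.12 ± 0.47, adjusted p = 0.912). SUL1 lost its call on dropping anaerobic 1, 2 or 3 or 20% oxygen 1 or 3 (highest adjusted p 0.108), and in a fit of the 2 groups only (0.0658). SEO1 lost it on dropping anaerobic 2 or 3 (highest adjusted p 0.0736). YCT1 lost its call on dropping anaerobic 2 (highest adjusted p 0.0547).

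The 20% arrays also stood apart from each other in 2 lists with 1 called gene each. In mitochondrial ribosomal proteins, 20% oxygen array 2 was the highest of its group in 65 of 69 genes (median 0.91 from its partners) and array 3 the lowest in 61 (median -0.73), while the list's median difference from anaerobic was 0.10. In thiamine, pyridoxine and biotin genes, array 1 was the lowest in 16 of 21 (median -1.0). THI4, a thiamine synthesis gene named after its values were seen, stood at 13.04, 13.18 and 13.07 on the anaerobic arrays and 7.63, 13.21 and 13.12 on the 20% arrays (-1.77 ± 1.07, adjusted p = 0.338). The cause of these array differences was not tested.

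Among 23 multidrug and vacuolar transporters 4 rose, or 17.4% against 3.27% of all genes, and none fell (median 0.34). YTP1, which encodes a membrane protein related to mitochondrial proteins, stood at 6.53, 3.49 and 4.59 on the anaerobic arrays and 7.33, 8.14 and 7.81 on the 20% arrays (2.89 ± 0.58, adjusted p = 0.0117). NFT1, a putative ABC transporter gene, stood at 4.81, 2.21 and 4.05 and then 6.23, 5.69 and 7.07 (2.64 ± 0.62, adjusted p = 0.0252). ATR1 (1.41 ± 0.23), of the major facilitator family, and YOR1 (0.68 ± 0.19), an ABC exporter of drugs, rose less. CTR1, the high-affinity copper transporter gene, rose (0.96 ± 0.24), the single rise among 17 copper and zinc genes. That is 5.88% of the list, against 3.27% of all genes. YTP1 lost its call on dropping anaerobic 3 or 20% oxygen 2 (highest adjusted p 0.0524) and NFT1 on dropping anaerobic 2 or 3 or 20% oxygen 3 (highest adjusted p 0.0851). YOR1 lost its call on dropping anaerobic 1, 2 or 3, 1% oxygen 1 or 2, 5% oxygen 1 or 2 or 20% oxygen 2 or 3 (highest adjusted p 0.153), and after quantile scaling (0.0523), in a fit of the 2 groups only (0.057) and without anaerobic 1 and 1% oxygen 3 (0.051). CTR1 lost it on dropping anaerobic 2 or 3 or 20% oxygen 2 or 3 (highest adjusted p 0.121).

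Phosphate genes moved in both directions. PHO84, the high-affinity phosphate transporter gene, rose from 3.57, 5.44 and 3.56 to 8.38, 6.62 and 7.26 (3.23 ± 0.59, adjusted p = 0.00801). PHO5, the secreted acid phosphatase gene that phosphate starvation also induces, fell from 7.43, 8.53 and 8.41 to 5.68, 5.57 and 5.87 (-2.42 ± 0.27, adjusted p = 0.00035). Both calls held with each array left out. PHM6 (1.51 ± 0.30), the glycerophosphoinositol transporter gene GIT1 (1.99 ± 0.49) and the polyphosphate synthesis gene VTC4 (0.71 ± 0.20) rose. Of 21 measured genes 4 thus rose and 1 fell (median 0.42). Those are 19.0% and 4.76% of the list, against 3.27% and 4.64% of all genes. PHM6 lost its call on dropping anaerobic 3 (highest adjusted p 0.0582) and GIT1 on dropping anaerobic 1, 2 or 3 or 20% oxygen 2 or 3 (highest adjusted p 0.0961). VTC4 lost its call on dropping anaerobic 1, 2 or 3, 1% oxygen 1 or 2, 5% oxygen 1 or 2 or 20% oxygen 2 or 3 (highest adjusted p 0.156), and after quantile scaling (0.0551) and without anaerobic 1 and 1% oxygen 3 (0.084).

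The flocculin gene FLO1, a cell surface adhesin, rose from 3.48, 3.40 and 2.83 to 5.87, 6.28 and 5.82 (2.75 ± 0.41, adjusted p = 0.00272), and FLO9 rose (1.76 ± 0.38). These genes are near-identical copies in part, so their probes can share signal. MF(ALPHA)1, which encodes the pheromone of alpha cells, had the smallest adjusted p of all rises and went from 2.79, 4.5 and 3.55 to 8.35, 7.37 and 6.98 (3.95 ± 0.46, adjusted p = 0.000542). It belongs to the haploid mating markers, of which 18 of 20 were dim. The array medians of that list were 3.17 to 3.88 without oxygen and 3.95 to 4.17 at 20%. STE2, the receptor gene of a cells, rose (1.03 ± 0.24), while STE3, its counterpart in alpha cells, was not called (0.70 ± 0.38, adjusted p = 0.29). Of 20 meiosis and sporulation markers, 17 of them dim, SPS1 rose (1.06 ± 0.20) and ZIP1 fell (-0.97 ± 0.21), and the list's array medians were 3.94 to 4.04 and 3.14 to 4.35. The part of haploid cells in these values was not tested. FLO9 lost its call on dropping anaerobic 2 or 3 or 20% oxygen 3 (highest adjusted p 0.078) and STE2 on dropping anaerobic 1, 2 or 3 or 20% oxygen 1 or 2 (highest adjusted p 0.0772). ZIP1 lost its call on dropping anaerobic 2 or 3 or 20% oxygen 2 (highest adjusted p 0.0803).

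Cytosolic ribosomal protein genes showed no call in 58 (median -0.05, range -0.48 to 0.18). Of the 20% arrays, array 1 was the highest in 49 of these 58 genes and array 3 the lowest in 55. Of 64 ribosome biogenesis genes 6 fell and none rose (median -0.22), with NOP8 (-1.39 ± 0.38) and PXR1 (-1.38 ± 0.31) the largest. Those falls are 9.4% of the list, against 4.64% of all genes. Anaerobic array 2 was the highest of its group in 60 of the 64 (median 0.33 from its partners). In 37 of them 20% oxygen array 3 was the lowest (median -0.33). Of 69 mitochondrial ribosomal protein genes MRP20 fell (-2.41 ± 0.61). In the stress and storage list 3 of 35 fell, the small heat shock protein gene HSP42 (-2.03 ± 0.51), the carboxypeptidase inhibitor gene TFS1 (-1.42 ± 0.39) and the glycogen debranching gene GDB1 (-1.03 ± 0.24). Those 3 are 8.57% of the list, against 4.64% of all genes. Among 14 wall proteins of aerobic cells, CWP2 rose (1.06 ± 0.22), and CIS3 (-1.15 ± 0.26) fell beside HPF1. NOP8 lost its call on dropping anaerobic 1, 2 or 3, 1% oxygen 2, 5% oxygen 1 or 2 or 20% oxygen 2 or 3 (highest adjusted p 0.154), and after quantile scaling (0.071). PXR1 lost it on dropping anaerobic 2 or 3 or 20% oxygen 2 (highest adjusted p 0.084). MRP20 lost its call on dropping anaerobic 1, 2 or 3 or 20% oxygen 2 or 3 (highest adjusted p 0.11). HSP42 lost it on dropping anaerobic 1 or 3 or 20% oxygen 1 or 2 (highest adjusted p 0.129), and without anaerobic 1 and 1% oxygen 3 (0.0599). TFS1 lost its call on dropping anaerobic 1 or 3, 1% oxygen 1 or 2, 5% oxygen 2 or 20% oxygen 1, 2 or 3 (highest adjusted p 0.166), and without anaerobic 1 and 1% oxygen 3 (0.108). GDB1 lost it on dropping anaerobic 1 or 3 or 20% oxygen 2 (highest adjusted p 0.09), and without anaerobic 1 and 1% oxygen 3 (0.053). CWP2 lost its call on dropping anaerobic 2 or 3 or 20% oxygen 2 (highest adjusted p 0.0655) and CIS3 on dropping anaerobic 2 or 3 or 20% oxygen 2 or 3 (highest adjusted p 0.0961).

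Levels at the intermediate oxygen settings were set side by side for genes chosen after their values were seen, and only 20% against 5% oxygen was tested. At 0, 1, 5 and 20% oxygen the mean level of DAN1 was 12.65, 12.19, 10.03 and 7.26, that of HES1 9.68, 8.66, 5.62 and 4.44 and that of IZH4 10.28, 9.99, 8.80 and 7.30. For DAN1, HES1 and IZH4 the 1% level lay closer to the anaerobic level than to the 20% level. The mean level of PKH1 was 9.05, 7.22, 6.17 and 6.18, that of PHO5 8.12, 6.25, 5.87 and 5.71 and that of FAA4 10.68, 8.58, 7.95 and 8.11. For PKH1, PHO5 and FAA4 it already lay closer to the 20% level. Among the rises, PUT4 (5.86, 7.71, 9.43 and 10.75) and MF(ALPHA)1 (3.61, 4.57, 5.95 and 7.57) were higher at each setting than at the one before, and RTC2 (7.47, 9.04, 9.0 and 9.01) stood at its 20% level from 1% on. Set against 5% oxygen, no gene was called at 20% (0% of 5449 higher and 0% lower in limma). At an unadjusted p under 0.05 there were 149 genes, or 2.73% of those tested, and the smallest adjusted p was 0.503. The difference from 5% was -2.77 ± 0.90, adjusted p = 0.999 for DAN1, 1.32 ± 0.63, adjusted p = 0.999 for PUT4 and 1.61 ± 0.46, adjusted p = 0.999 for MF(ALPHA)1.

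Several of the called genes are neighbours. When the tested genes were put in chromosome order by the reference annotation of strain S288C, whose order may differ from that of EC1118 near chromosome ends, 22 neighbouring pairs held 2 falls, 13 held 2 rises and 11 held 1 of each, among 5433 pairs. A falling neighbour was found for 16.6% of the falls and for 9.03% of all genes, and a rising neighbour for 14.04% of the rises and 6.29% of all genes. These counts and shares include pairs that may not be separate measurements. Examples are YBL100W-B with YBL100W-A, YDR261W-B with YDR261C-D, NIT1 with YIL165C, and NFT1 with YKR104W. TIR4, TIR2 and AUS1 are consecutive, with differences of -5.73, -4.84 and -3.32, while the 3 genes on either side lay between -0.65 and 0.14. PDR11, TIR3 and DOT5 are consecutive (-2.09 ± 0.39, -3.26 ± 0.73 and -1.16 ± 0.28), as are DAN1 and DAN4 (-3.56 ± 0.66), and PAU3 (-1.95 ± 0.37) and ADH7. Of the rises, SUL1 lies beside VBA2, VBA3 beside the glutathione exchanger gene GEX1 (2.07 ± 0.5), and NIT1 beside YIL165C (2.42 ± 0.41). NFT1 (2.64 ± 0.62) lies beside YKR104W (2.98 ± 0.74). NIT1 with YIL165C, and NFT1 with YKR104W, are each 1 longer gene in some strains, so they may not be separate measurements. DAL5, which rose, lies 2 places from DAN4, which fell. These blocks were chosen after their values were seen. GEX1 lost its call on dropping anaerobic 2 or 3 or 20% oxygen 1 or 3 (highest adjusted p 0.108) and NFT1 on dropping anaerobic 2 or 3 or 20% oxygen 3 (highest adjusted p 0.0851). YKR104W lost its call on dropping anaerobic 2 or 3 or 20% oxygen 1 or 3 (highest adjusted p 0.104). TIR3, DOT5, SUL1 and VBA3 depended on single arrays as given above.

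**Figure D5:**
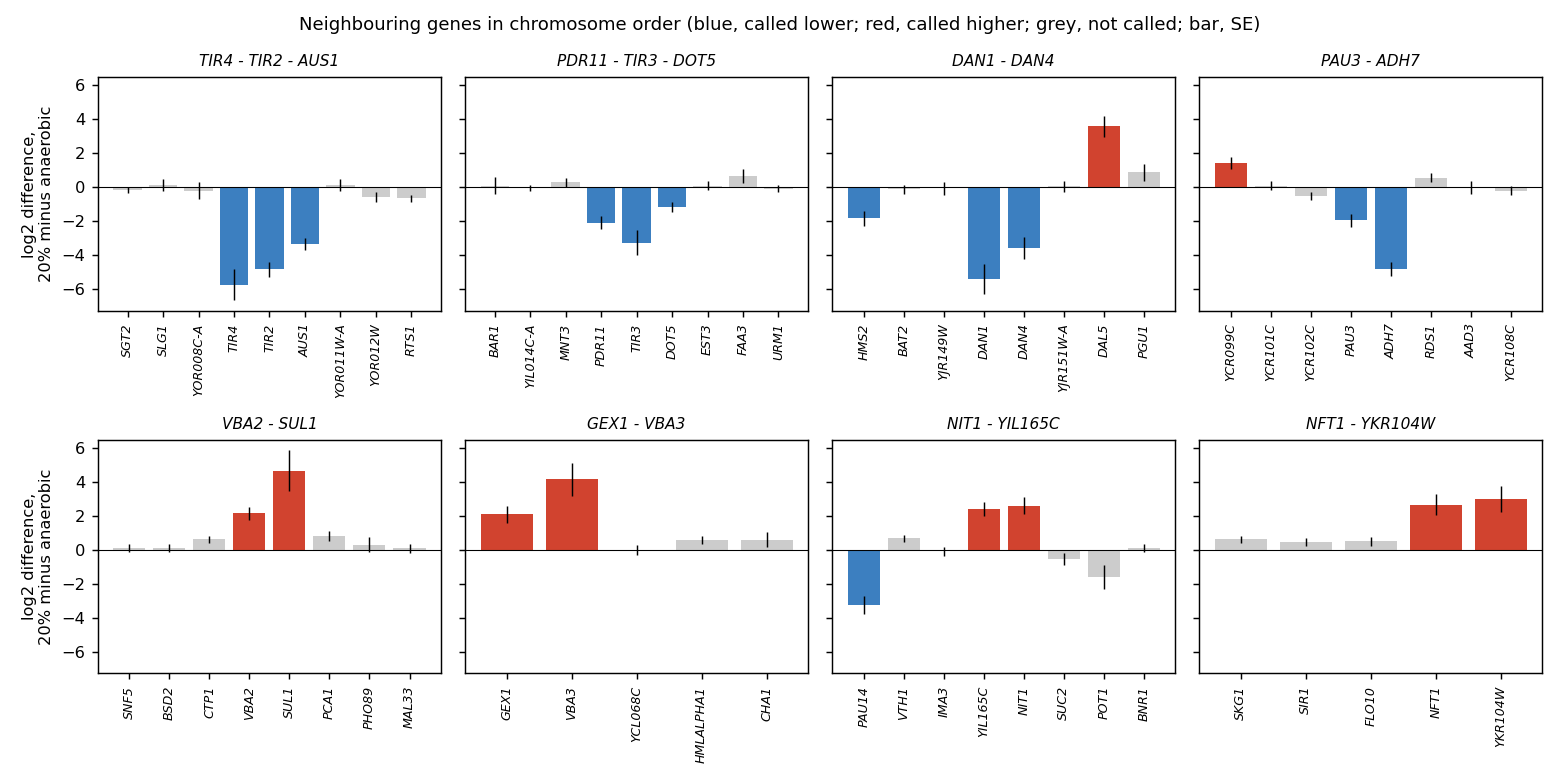
Log2 difference (y axis, 20% oxygen minus anaerobic, bar SE of the fit) of 8 groups of neighbouring genes and up to 3 tested genes on each side, in chromosome order with equal spacing. Called falls are blue and called rises red; TIR4, TIR2 and AUS1 fall together between neighbours that were not called.

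Among the 499 tested genes known only by a systematic name, 16 rose, or 3.21%, and 21 fell, or 4.21%, against 3.27% and 4.64% of all genes. YML083C fell from 6.28, 7.82 and 7.88 to 3.56, 3.83 and 3.91 (-3.56 ± 0.39, adjusted p = 0.00035), and YGL039W fell from 10.51, 10.24 and 10.89 to 7.32, 7.76 and 8.27 (-2.76 ± 0.32, adjusted p = 0.000474). The transposon genes YBL100W-A (-2.58 ± 0.38) and YBL100W-B (-2.88 ± 0.31) fell, as members of a repeated family whose copies can share signal. RKM5, a ribosomal protein methyltransferase gene, rose from 6.18, 6.39 and 6.5 to 7.84, 7.68 and 7.67 (1.37 ± 0.18, adjusted p = 0.00134). All of these named calls held with each array left out.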

How the data were processed

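Total RNA of 12 arrays, 3 in each of 4 oxygen groups, was read from the series' deposited value table. Its values are log2 intensities that the authors had made with RMA, per the submitters' processing notes, and the software version is not given in the sources used here. They were used as deposited. The platform annotation paired 5498 of 5716 probe sets with 1 gene and left 218 unnamed. For the 47 genes with several probe sets the one with the highest mean was kept, which left 5449 genes, and 12 symbols were updated from the reference gene table.

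A mean per group was fitted in limma 3.58.1 (R 4.3.3) with 8 residual degrees of freedom, the contrast was 20% oxygen minus anaerobic, and p-values were adjusted by Benjamini-Hochberg over all genes. The fit was tested on simulated data. The number of arrays limits the precision. The genes, lists and pairs were chosen with earlier results of these data known.

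Genes were named by rule: the 20 largest called rises and falls with a symbol and no PAU name whose level in the higher group was at least 5.84, below which lay the mean of 1362 genes, both genes of each pair, up to 4 rises and 4 falls of each list, the 6 smallest adjusted p-values in each direction, and DAN1, HEM13, ANB1, AAC3 and ROX1. For the largest rises and falls the rule also required no overlap between the anaerobic and 20% arrays. Other names were chosen after their values were seen, namely ALE1, ARE1, AVT2, AVT4, COR1, COX9, CTT1, CYB2, CYC8, DIP5, ERG11, EUG1, GAP1, GEX1, ICL1, ICT1, MEP2, NCE102, OLE1, OSH3, OSH7, PAU3, PDC6, PDI1, PUT1, PUT2, PUT3, SLC1, STE3, THI4, YPQ2 and all systematic names. Alternatives were other scalings, filters, priors, probe set rules and sets of arrays. Promoter sequences were not analysed here.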

Additional observations from a re-analysis of the deposited data

Results flagged for a closer look

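Of the 218 probe sets with no gene in the annotation used here, which entered no comparison above, 16 were called in the same limma contrast, or 7.34% against 7.91% of the 5449 genes tested, 8 of them higher and 8 lower at 20% oxygen. They are given because no comparison above used them, and their share is near that of those genes. Probe set 1773061_s_at stood at 9.76, 9.49 and 10.60 on the anaerobic arrays and at 3.47, 5.09 and 3.33 on the 20% arrays, a log2 difference of -5.99 ± 0.57 with an adjusted p of 0.000142. Probe set 1776828_at differed by -2.52 ± 0.25, at levels below those of most genes on all 6 arrays. Probe set 1769921_at rose from 7.38, 7.42 and 6.95 to 8.83, 8.68 and 8.85 (1.54 ± 0.18).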

How the results depend on the processing

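The 431 calls numbered 545 after quantile scaling (264 higher, 281 lower), 453 after median scaling, 361 without dim genes (183 higher, 178 lower), 450 with every probe set, 449 with a trended prior, 433 with a robust prior and 431 with the mean of probe sets. Rises moved from 178 to 92 with a 2-fold minimum and to 270 without anaerobic array 1 and 1% oxygen array 3, and falls from 253 to 381 in a fit of the 2 groups only, which has fewer arrays and its own spread. Leaving out 1 array gave 153 to 758 calls, 47 to 343 of them higher and 95 to 415 lower. With the replicate number as a block there were 303 calls, 117 higher and 186 lower. Of genes named above, AFT2, ATP5, ATP7, COR1, COX13, DIP5, FRE2, MRP20 and NOP8 lost their call with this block. So did OSH2, OSH3, PYC1, RNR4, SAM3, TFS1, VTC4 and YOR1 (limma adjusted p from 0.0528 in FRE2 to 0.0963 in VTC4). Deviations of same-numbered anaerobic and 20% arrays correlated at -0.13, -0.05 and -0.17. These 3 values cannot settle whether the numbers pair the arrays, and the labels do not say.

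Of 3098 values of the 142 genes named by rule, 2739 kept their direction and side of the threshold, 311 lost the call, 25 gained it and 23 turned in direction, in 9 genes that were not called. Without anaerobic array 1, and likewise without both arrays that stand apart, the differences turned to 0.125 in ACS2, 0.483 in CYC7, 0.118 in MDH2, 0.070 in CIT2, 0.105 in SUL2 and 0.324 in ALD6. HMG1 turned to -0.049 without anaerobic array 2 or 3, MDH1 to -0.0990 without anaerobic array 2 and MDH2 to 0.084 without anaerobic array 3. Without 20% oxygen array 1 the differences were 0.071 in ACS2, 0.209 in MDH2 and 0.130 in ALD6. Without 20% oxygen array 2 they were 0.159 in RNR1, 0.479 in SUL2 and 0.112 in ALD6, and MDH1 was -0.108 without 20% oxygen array 3. Over all arrays left out in turn, HMG1 ranged from -0.049 to 0.935, RNR1 from -0.323 to 0.159, ACS2 from -0.232 to 0.125, MDH1 from -0.108 to 0.280, CYC7 from -0.974 to 0.483, MDH2 from -0.370 to 0.209, CIT2 from -0.729 to 0.070, SUL2 from -0.671 to 0.479 and ALD6 from -0.452 to 0.324. The cause was not tested. The table holds no detection calls, so signal over background could not be judged.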
